A study of Mus musculus with 2 samples.

Results

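The genes described here are 34 transcripts of the cell cycle and of mitosis, chosen as a fixed list of symbols and found in full among the 55487 genes of the deposited table. They were read per mouse and per immune cell class in CD45+ cells of the mouse cecum. By role, 7 act in replication licensing and at the fork (Mcm2, Mcm3, Mcm5, Mcm6, Pcna, Pole2, Pclaf), 4 in nucleotide supply (Tyms, Rrm1, Rrm2, Tk1), 5 are cyclin, Cdk and Cks genes (Ccna2, Ccnb1, Ccnb2, Cdk1, Cks1b) and 4 are mitotic kinase and checkpoint genes (Plk1, Aurka, Aurkb, Bub1). A further 5 belong to the chromosome passenger complex and the centromere (Birc5, Cdca8, Cenpa, Cenpe, Cenpf), 4 to the spindle (Kif11, Tpx2, Nusap1, Stmn1), 2 to mitotic exit and protein turnover (Ube2c, Cdca3), and 3 encode chromatin proteins or the Ki-67 antigen (Mki67, Top2a, Hmgb2).

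The study asked what activating Trpv1+ neurons, the pain-sensing nociceptors, does to immunocytes of the gut. It compared 2 Trpv1-ADC mice with 2 littermate CTRL mice, all male and 101 days old. Every mouse is labelled as having received AAV by intraperitoneal injection as a newborn and 7 injections of CNO, the ligand of the chemogenetic receptor, given on alternate days. The strains are labelled Trpv1-WT.B6 and Trpv1-Cre.B6 together, and no label ties a strain to a single mouse. Cecum cells were released with dispase and collagenase II, sorted for CD45, tagged with anti-CD45 hashtags and loaded as 1 droplet run, so the 4 mice share library, depth and batch. No label names the cell type that expresses the receptor beyond the Trpv1 driver or gives the AAV's content.

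Dividing cells copy their DNA in S phase and separate the copies in mitosis. Licensing and fork genes and nucleotide enzymes are switched on by E2F factors at the start of S phase, while cyclin B, the mitotic kinases, the spindle motors and the centromere proteins peak later, through promoters that carry CCAAT boxes and the cell cycle genes homology region (CHR). In the gut wall most resident immune cells are at rest, and germinal centre B cells, recently activated T cells and dendritic cells renewing from precursors are the classes best known for division.

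Of 23063 barcodes, 19571 passed quality limits and carried the tag of 1 mouse, and 17519 were kept after 2052 doublets were removed. The kept cells numbered 4393 in CTRL 1, 4165 in CTRL 2, 4430 in Trpv1-ADC 1 and 4531 in Trpv1-ADC 2, and each mouse summed to between 27586172 and 29905834 unique molecular identifiers (UMIs, single captured RNA molecules). Classes were built from fixed marker genes on clusters made without cell cycle genes and are called "X-like". Clusters led by markers of non-immune cells held 654 of the kept cells, although the sort was for CD45. With 2 mice in each group the spread is that between 2 animals, and an exact permutation test of a single value cannot give a p below 0.333.

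Cells with at least 1 UMI of Mki67, the Ki-67 antigen, or of Top2a, the topoisomerase that untangles sister DNA, are called positive here. There were 1313 of them, 7.49% of all cells. CTRL 1 had 345 positive cells (7.85%, exact Clopper-Pearson 95% interval 7.07 to 8.69) and CTRL 2 had 363 (8.72%, 7.88 to 9.61). Trpv1-ADC 1 had 285 (6.43%, 5.73 to 7.2) and Trpv1-ADC 2 had 320 (7.06%, 6.33 to 7.85). These intervals cover counting error only. Both CTRL mice lay above both Trpv1-ADC mice, with means of 8.28% ± 0.610 and 6.75% ± 0.445 (SD, n = 2 each), a difference of -1.54 percentage points (two-sided exact permutation p = 0.333, the smallest these 4 mice allow). With each cell thinned to 2000 UMIs, which left out 601 shallower cells, the shares were 3.46% and 3.77% in CTRL and 2.62% and 2.73% in Trpv1-ADC mice. When every mouse was given the class make-up of all mice pooled, the shares were 7.58% and 7.91% against 6.60% and 7.85%. The groups then overlapped, and the difference was -0.517 percentage points (exact permutation p = 0.667).

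The classes differed widely in their share of positive cells. Among the 20 classes plotted, germinal centre B cell-like cells stood highest, with 48 of 53 positive (90.6%). By mouse this was 75.0% of 4 cells and 88.2% of 17 cells in CTRL, and all 17 and 86.7% of 15 in Trpv1-ADC mice, so the groups overlapped. Next came the unnamed cluster I0, led by Il1r2, Tbc1d4 and Cd80, at 33.9%, then mature dendritic cell-like cells at 31.7%, conventional dendritic cell 1 (cDC1)-like at 29.6%, plasma cell-like at 29.0%, conventional dendritic cell 2 (cDC2)-like at 26.5% and effector CD4 T cell-like at 13%. Macrophage-like (10.8%), regulatory T cell (Treg)-like (8.89%), type 3 gamma delta T cell-like (8.77%), intraepithelial-type T cell-like (8.12%) and NK cell or ILC1-like cells (7.67%) followed. The lowest shares were those of ILC3-like (3.54%), naive CD4 T cell-like (3.53%) and naive CD8 T cell-like cells (3.34%). The single mice of the 5 classes from I0 to cDC2-like overlapped, so their order is not fixed by these data. Effector CD4 T cell-like cells (11.9% to 14.4% over the mice) lay above macrophage-like cells (10.1% to 11.5%) and these above Treg-like cells (7.57% to 9.83%), and naive CD4 and naive CD8 T cell-like cells overlapped.

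**Figure D1:**
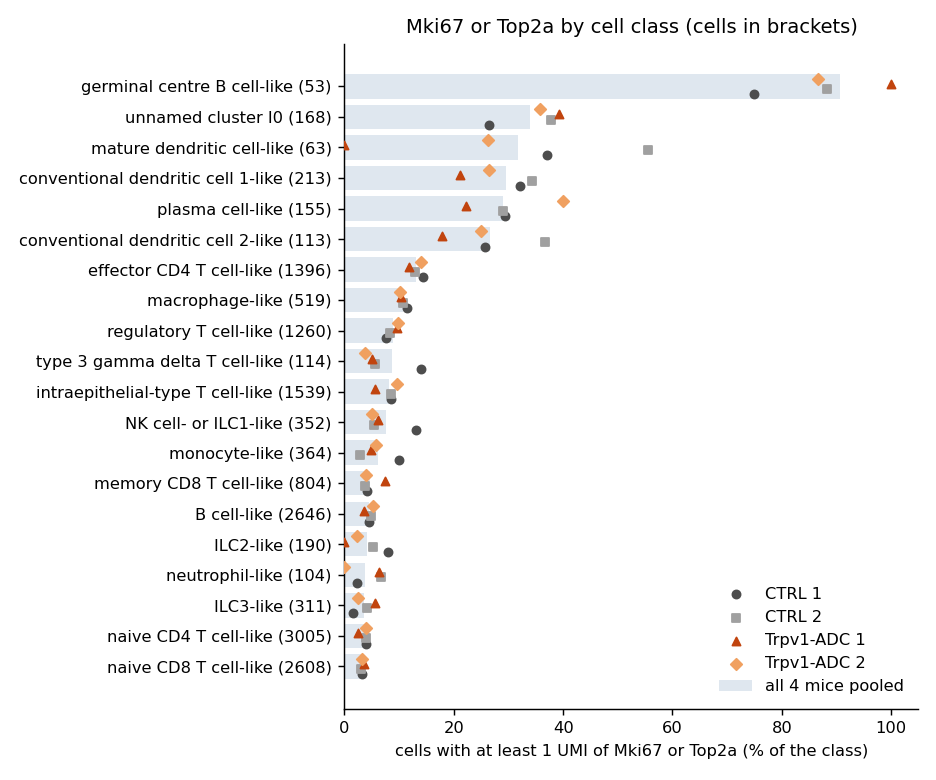
Share of cells with at least 1 UMI of Mki67 or Top2a, in percent, for 20 immune cell classes. Bars give the share over all 4 mice pooled and points the single mice, coloured by group. Germinal centre B cell-like cells reach 90.6% and naive CD8 T cell-like cells 3.34%, and in most classes the points of the 2 groups mix.

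Neutrophil-like cells, mature cells that no longer divide, give the level that stray RNA can leave behind. Of 104 such cells 4 were positive (3.85%), all through Mki67 and none with more than 1 UMI, at a median depth of 2757 UMIs. Naive CD4, naive CD8 and ILC3-like cells lay at or under that share, and their pooled shares cannot be told from background. Depth moved the order of the others. The median was 16193 UMIs in cDC1-like and 18413 in plasma cell-like cells against 5616 over all cells. After thinning to 2000 UMIs, plasma cell-like cells stood at 8.05% and mature dendritic cell-like cells at 9.68%, while germinal centre B cell-like (54.7%), cDC1-like (17.3%) and cDC2-like cells (13.5%) led. Pooled over mice, thinned type 3 gamma delta T cell-like (5.36%), effector CD4 T cell-like (5.26%), macrophage-like (4.4%) and intraepithelial-type cells (4.07%) lay above thinned neutrophil-like cells at 3.26%, and Treg-like cells (3.40%) lay close to them. Single mice ran from 0% to 7.69% in neutrophil-like and 0% to 10.2% in type 3 gamma delta T cell-like cells. They ran from 4.44% to 6.13% in effector CD4, 2.13% to 5.92% in macrophage-like and 2.15% to 5.48% in intraepithelial-type cells. All these ranges overlap that of neutrophil-like cells, so this order is not fixed by these data. Thinned NK cell or ILC1-like (2.88%), ILC2-like (2.15%), B cell-like (2.12%) and monocyte-like cells (1.98%) lay under the neutrophil-like level. So did memory CD8 (1.76%), ILC3-like (1.66%), naive CD4 (1.38%) and naive CD8 T cell-like cells (1.08%). That level rests on 92 thinned cells, and these pooled shares cannot be told from background. Parts of these classes stood higher: thinned, cluster T13 of NK cell or ILC1-like cells was at 6.36% and cluster B4 of B cell-like cells at 4.38%. Before thinning, 13 B cell-like, 4 NK cell or ILC1-like and 4 ILC2-like cells held 10 or more of the 32 genes other than Mki67 and Top2a. Memory CD8 and naive CD8 T cell-like cells had 2 each, monocyte-like, ILC3-like and naive CD4 T cell-like cells 1 each, and neutrophil-like cells 0. Unthinned, effector CD4 T cell-like cells gave 13.9% of all positive cells, intraepithelial-type 9.52%, B cell-like 8.99%, Treg-like 8.53%, naive CD4 8.07% and naive CD8 T cell-like 6.63%, so many positive cells come from classes whose pooled share cannot be told from background.

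None of the 13 classes with enough positive cells differed between groups in this share by edgeR's quasi-likelihood test with Benjamini-Hochberg adjustment (0.0% of classes, 0 at an unadjusted p under 0.05, lowest adjusted p = 0.784). DESeq2 was not run on the shares. In cDC1-like cells the share was 32.1% and 34.3% in CTRL and 21.1% and 26.5% in Trpv1-ADC mice, of 56, 70, 38 and 49 cells. In Treg-like cells it was 7.57% and 8.41% in CTRL and 9.69% and 9.83% in Trpv1-ADC mice. The groups did not overlap in either class, and the class difference was -9.42 percentage points in the first and 1.77 in the second. Effector CD4 T cell-like cells (14.4% and 13% against 11.9% and 14%) and intraepithelial-type cells (8.48% and 8.55% against 5.59% and 9.55%) overlapped. After thinning, the groups overlapped in cDC1-like cells (18.5% and 19.1% against 10.5% and 18.8%). They stayed apart in Treg-like cells (2.36% and 3.14% against 4.63% and 3.52%).

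A positive cell was not always one that expressed the other 32 genes. Of the 1313 positive cells, 816 (62.1%) held a single UMI of Mki67 and Top2a together, and positive cells were deeper than the rest (median 7862 against 5527 UMIs). The 497 cells with 2 or more UMIs carried a median of 9 of the other 32 genes, and 240 of them (48.3%) carried 10 or more. Cells with a single UMI carried a median of 3 and reached 10 in 2.33%, and cells with none a median of 2 and 0.136%. By class, cells with 2 or more UMIs of the pair carried a median of 24 of the genes among germinal centre B cell-like, 18 among cDC1-like and 17.5 among cDC2-like cells. The same median was 9 among effector CD4 T cell-like, 3 among intraepithelial-type and plasma cell-like, and 2 among naive CD8 T cell-like cells. Cells carrying 10 or more of the 32 genes numbered 80 and 78 in the CTRL mice and 56 and 67 in the Trpv1-ADC mice, 1.82% and 1.87% against 1.26% and 1.48% of all cells, with no overlap. They came chiefly from cDC1-like (44), effector CD4 T cell-like (39), germinal centre B cell-like (35) and Treg-like cells (22) and cluster I0 (20). These classes differed in direction. Trpv1-ADC mice had fewer in cDC1-like cells (15 and 15 against 5 and 9) and in I0 (9 and 7 against 2 and 2). They had more in effector CD4 T cell-like (6 and 7 against 12 and 14) and germinal centre B cell-like cells (3 and 7 against 15 and 10). Treg-like cells had 4 and 6 against 6 and 6. This count was not standardised to class make-up.

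The share of a gene's UMIs that lay in positive cells differed widely between genes, also between genes of the same role. For all genes together it was 12.5%, and over the 32 genes the median was 71.5%. Replication licensing and fork genes ran from 17.3% (Pole2) to 95.1% (Pclaf). Chromosome passenger and centromere genes ran from 18.1% (Cenpa) to 91.2% (Birc5). Pclaf, the PCNA-associated factor, was highest at 95.1% (94.0% and 96.4% in CTRL, 93.1% and 95.6% in Trpv1-ADC mice). Ccna2, cyclin A2, followed at 93.5% and Ube2c, the ubiquitin-conjugating enzyme of the anaphase-promoting complex, at 92.1%. Birc5, the survivin subunit of the chromosome passenger complex, reached 91.2%, Bub1, a spindle checkpoint kinase, 89.6%, Ccnb2, a B-type cyclin, 86.2% and Cdk1, the kinase these cyclins drive, 86.0%. Scaled to the same total of UMIs (counts-per-million, CPM), Pclaf was 136 times and Ccna2 101 times as high in positive as in other cells.

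**Figure D2:**
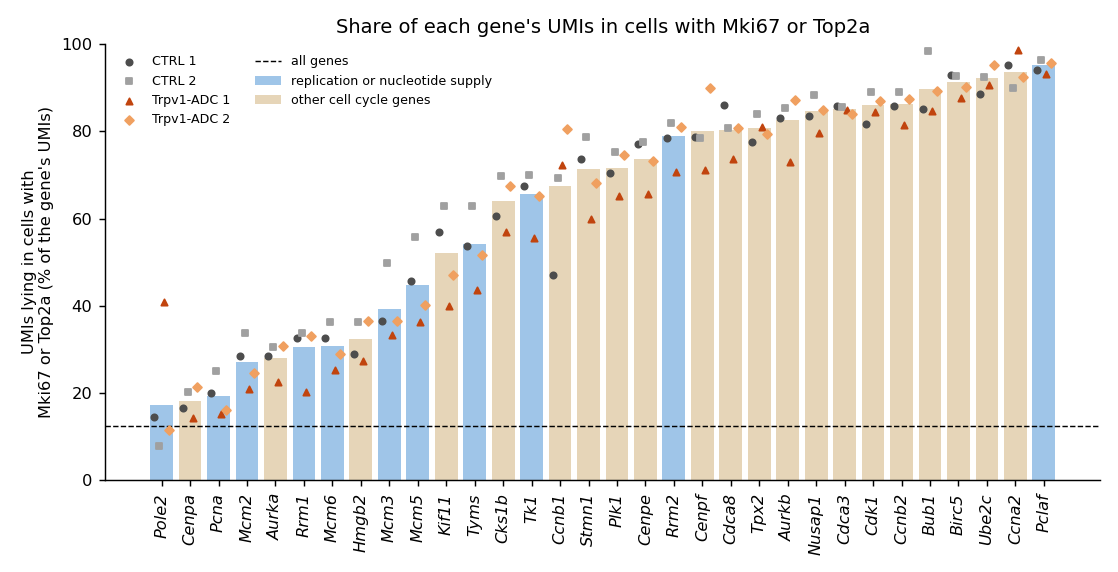
Percent of each gene's UMIs that lay in cells with Mki67 or Top2a, for the 32 other genes, with the 4 mice as points and a dashed line at the 12.5% of all genes' UMIs. Pole2, Cenpa and Pcna sit lowest, near the line, and Pclaf, Ccna2 and Ube2c highest.

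At the other end stood genes that resting cells also express. Pole2, a subunit of DNA polymerase epsilon, had 17.3% of its UMIs in positive cells, Cenpa, the histone variant that marks the centromere, 18.1%, and Pcna, the sliding clamp of the fork, 19.2%. The helicase subunits Mcm2 (27.1%), Mcm6 (30.7%), Mcm3 (39.4%) and Mcm5 (44.8%), the mitotic kinase Aurka (28.1%), Rrm1, the large subunit of ribonucleotide reductase (30.6%), and Hmgb2, a DNA-bending chromatin protein (32.5%), lay between. Rrm2, the small subunit of the same reductase, reached 78.9%. Cenpa was found in 34.9% of positive and 24.1% of other cells, whereas Pclaf was found in 18.4% and 0.654%. Hmgb2 was the most abundant of the 34, with 44924 UMIs in 71.3% of cells, and Bub1 the rarest, with 240 UMIs in 0.839% of cells. Most UMIs of Pole2, Cenpa, Pcna, Aurka, Rrm1, Hmgb2 and the 4 Mcm genes thus lay in cells without Mki67 or Top2a.

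Pole2 was uneven in another way. Of its 2744 UMIs, 764 (27.8%) lay in 10 cells. In plasma cell-like cells of CTRL 2 it had 320 UMIs, 116 of them in 1 cell, and in germinal centre B cell-like cells of Trpv1-ADC 1 it had 199, 106 of them in 1 cell. The share of Pole2 UMIs in positive cells was 40.8% in that mouse and 7.80% to 14.5% in the others. The annotation places 245 exon bases of Pole2 on the same strand as another gene, Gm49384, and whether reads of the pair were split is not given in the sources used here.

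The promoters of 6 of the genes are shown because they carry the groups that the values separate: the genes whose UMIs lay mostly outside positive cells and changed in a class (Cenpa, Rrm1), the most concentrated gene (Pclaf), a helicase subunit (Mcm6), the mitotic kinase whose window held all 3 motifs searched (Cdk1), and Top2a itself. Each is the 250 bases before the gene's start in RefSeq on GRCm38.p6, read 5′ to 3′ on the gene's strand. Capitals mark the CCAAT box (CCAAT, or ATTGG on the other strand), the CHR (TTTGAA or TTCAAA) and the E2F motif (TTTCCCGC, TTTGGCGC, TTTCGCGC or TTTGCCGC, or their reverse complements). Cenpa lies at chr5:30666636-30666885 (+), Rrm1 at chr7:102441445-102441694 (+), Pclaf at chr9:65890073-65890322 (+), Mcm6 at chr1:128359706-128359955 (-), Cdk1 at chr10:69352913-69353162 (-) and Top2a at chr11:99024190-99024439 (-).
Cenpa: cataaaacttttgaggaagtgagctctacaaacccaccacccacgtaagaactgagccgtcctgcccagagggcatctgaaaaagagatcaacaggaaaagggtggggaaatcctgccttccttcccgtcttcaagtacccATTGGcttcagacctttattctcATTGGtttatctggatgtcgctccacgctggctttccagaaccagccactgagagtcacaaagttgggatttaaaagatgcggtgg
Rrm1: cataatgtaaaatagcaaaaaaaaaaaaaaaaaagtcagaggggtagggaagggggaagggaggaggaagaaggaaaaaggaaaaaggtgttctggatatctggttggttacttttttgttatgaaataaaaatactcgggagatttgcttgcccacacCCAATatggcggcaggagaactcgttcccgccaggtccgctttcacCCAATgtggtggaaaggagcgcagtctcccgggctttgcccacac
Pclaf: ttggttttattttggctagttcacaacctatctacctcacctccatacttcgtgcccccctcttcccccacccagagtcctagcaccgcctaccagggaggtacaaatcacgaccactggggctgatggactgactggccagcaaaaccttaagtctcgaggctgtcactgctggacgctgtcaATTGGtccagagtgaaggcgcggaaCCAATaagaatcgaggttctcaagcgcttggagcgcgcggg
Mcm6: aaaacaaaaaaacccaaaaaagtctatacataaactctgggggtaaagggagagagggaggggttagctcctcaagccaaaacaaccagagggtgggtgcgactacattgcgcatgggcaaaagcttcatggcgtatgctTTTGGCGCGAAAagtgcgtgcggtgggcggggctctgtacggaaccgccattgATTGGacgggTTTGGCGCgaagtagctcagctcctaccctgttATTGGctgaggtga
Cdk1: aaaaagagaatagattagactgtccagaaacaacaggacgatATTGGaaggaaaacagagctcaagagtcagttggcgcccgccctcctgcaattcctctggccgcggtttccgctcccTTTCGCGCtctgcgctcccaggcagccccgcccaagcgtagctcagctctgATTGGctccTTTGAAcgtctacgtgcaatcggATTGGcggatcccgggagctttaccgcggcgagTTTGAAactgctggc
Top2a: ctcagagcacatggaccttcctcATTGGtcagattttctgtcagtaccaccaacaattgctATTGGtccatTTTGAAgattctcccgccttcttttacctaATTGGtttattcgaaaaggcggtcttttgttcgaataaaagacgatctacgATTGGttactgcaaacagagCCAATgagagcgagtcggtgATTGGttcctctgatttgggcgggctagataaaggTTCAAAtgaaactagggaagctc

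Windows of 300 bases (250 before and 50 after the start) were found for 30 of the 34 genes. Ccna2, Aurkb, Tpx2 and Stmn1 had no entry. The CHR letters stood in 15 of 30 windows (50%, against 17.9% of all 32851 windows), the CCAAT box in 25 (83.3% against 37.4%) and an E2F motif in 6 (20% against 2.26%), on either strand. Split by role, the CHR stood in 1 of 11 replication and nucleotide supply windows (9.09%) and in 14 of 19 others (73.7%), and an E2F motif in 5 of 11 (45.5%) and 1 of 19 (5.26%). The CCAAT box was found in 8 of 11 and 17 of 19. Only the Cdk1 window held all 3, and 0.119% of all windows do. In Mcm6, 2 of the 3 E2F matches overlap each other, and the CHR match of Cenpa lies after its start, outside the bases shown. The E2F match of Pclaf begins at base -5 and runs past the start, so it is counted here but not in capitals above. A match is a run of letters and not a site shown to be bound. Leaving out Mki67 and Top2a, the CHR stood in 7 of the 13 windows of genes above the median concentration in positive cells and in 6 of the 15 at or below it.

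Germinal centre B cell-like cells had the highest pooled level of all 34 genes, in CPM of the class's UMIs: 2820 CPM for Hmgb2, 710 for Stmn1, 632 for Top2a, 610 for Pclaf and 585 for Mki67. Below that class the genes parted. Pclaf was next highest in cDC1-like (98.2 CPM) and cDC2-like cells (94.0 CPM). Mcm6 was next highest in Treg-like (116 CPM) and effector CD4 T cell-like cells (101 CPM), Rrm1 in intraepithelial-type cells (69.2 CPM), and Pole2 in plasma cell-like cells (142 CPM). Cenpa was next highest in the unnamed T cell cluster T14 (101 CPM) and in B cell-like cells (99.3 CPM) and lowest in plasma cell-like cells (8.19 CPM). The summed replication and nucleotide genes stood, pooled, at 1.11 times the summed genes of the mitotic groups in cDC2-like cells (0.842 to 2.90 over the mice), 1.16 times in germinal centre B cell-like cells (0.648 to 2.16) and 1.21 times in cDC1-like cells (0.566 to 2.82). In memory CD8 T cell-like cells the ratio was 4.63 (3.88 to 5.52), above every mouse of those 3 classes, and in naive CD8 T cell-like cells it was 3.64 (2.53 to 4.58), which overlapped with both dendritic classes.

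**Figure D3:**
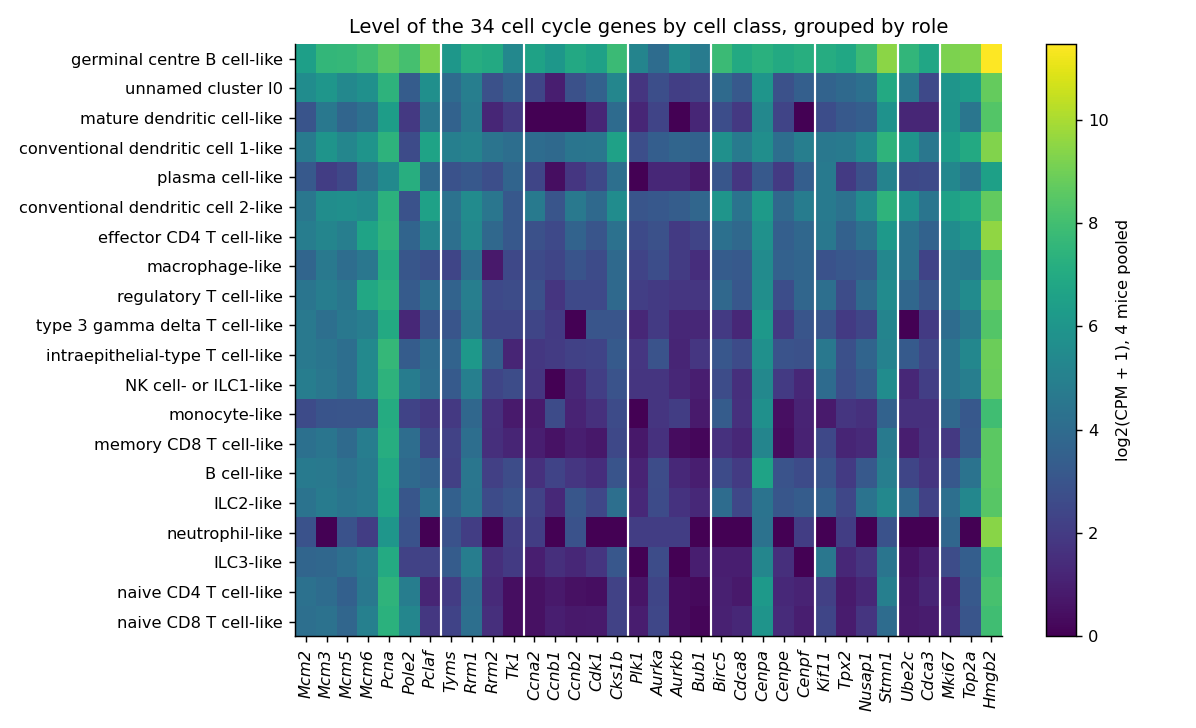
Pooled level of each of the 34 genes in each class, as log2(CPM + 1), with genes ordered by role and colour giving the level. The germinal centre B cell-like class is highest for every gene, and Hmgb2, Pcna, Stmn1 and Cenpa are seen in nearly every class.

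Summed over all cells of a mouse, none of the 34 genes passed edgeR's adjusted threshold of 0.05 between the groups, where 0.245% of all 18783 genes tested did. At an unadjusted p under 0.05 there were 2, Cenpa and Stmn1, where 18.2% of all genes had such a p, and DESeq2 called 0. In such a sum, fewer cells of a class and less RNA per cell cannot be told apart. Mki67 stood at 23.4 and 33.6 CPM in CTRL and 18.2 and 23.8 CPM in Trpv1-ADC mice (log2 change -0.42, edgeR adjusted p = 0.40). Top2a stood at 35.5 and 44.1 CPM against 25.3 and 34.1 CPM (-0.41, adjusted p = 0.329). The groups overlapped for Mki67 and lay apart, with Trpv1-ADC mice lower, for Top2a. Of the 34 changes, 26 were below 0 and 8 above, with a median of -0.10 against 0 for all genes.

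By role, the nucleotide supply genes were all 4 below 0 (median -0.42). Rrm1 stood at 27.3 and 33.5 CPM in CTRL and 23.2 and 26 CPM in Trpv1-ADC mice (-0.29 ± 0.13 SE, edgeR adjusted p = 0.302). Cenpa stood at 64.7 and 59.7 CPM against 53.2 and 50.9 CPM (-0.24 ± 0.07, adjusted p = 0.181). Stmn1, which destabilises microtubules, stood at 51.2 and 64.2 CPM against 37.9 and 46.5 CPM (-0.44 ± 0.15, adjusted p = 0.245). The 2 groups did not overlap for any of these 3 genes. Mcm2 (18.6 and 21.6 against 20 and 20.7 CPM) and Ube2c (9.60 and 11.9 against 9.57 and 14.8 CPM) overlapped.

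Within classes, 3 of the 237 gene and class pairs tested passed in the 14 classes with at least 20 cells in every mouse, where 0.786% of all genes did: Cenpa and Rrm1 in intraepithelial-type T cell-like cells and Pclaf in cDC1-like cells. All 3 fell. DESeq2 called Cenpa, did not call Rrm1 and gave no adjusted p for Pclaf. The count moved with the mice in the fit: leaving out CTRL 1 gave 13 of 276 pairs (0.818% of all genes) and leaving out CTRL 2 gave 25 of 280 (1.45%), while leaving out the first Trpv1-ADC mouse gave 22 of 297 (2.51%) and the second 17 of 294 (1.56%), fits in which the lone mouse of a group is taken to vary like the other pair.

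Intraepithelial-type T cells are cytotoxic lymphocytes that sit in or under the epithelium. This class held 448 and 585 cells in CTRL and 286 and 220 in Trpv1-ADC mice. In it 6.34% of all genes were called and 23.0% had an unadjusted p under 0.05, so 2 calls among the 27 cell cycle genes tested is a share close to that background. Cenpa had 169 and 207 UMIs in CTRL and 39 and 36 in Trpv1-ADC mice, which is 66.6 and 63.5 against 26.9 and 29.5 CPM. Both Trpv1-ADC mice lay far under both CTRL mice, and Cenpa fell by 1.27 ± 0.18 (log2, SE; edgeR adjusted p = 0.00317). It was found in 25.0% and 22.2% of CTRL cells and in 10.8% and 8.18% of Trpv1-ADC cells.

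Rrm1 stood at 82.3 and 76.1 CPM in CTRL and 39.3 and 58.9 CPM in Trpv1-ADC mice, with no overlap, and fell by 0.76 ± 0.18 (edgeR adjusted p = 0.0284). The Rrm1 call was lost without CTRL 1 (-0.72, adjusted p = 0.0797) and with DESeq2 (-0.80, adjusted p = 0.112). Hmgb2 stood at 522 and 517 CPM against 316 and 451 CPM (-0.51 ± 0.15, adjusted p = 0.0607). Its groups did not overlap and it did not pass, although it did without Trpv1-ADC 1 (-0.33, adjusted p = 0.0196) or Trpv1-ADC 2 (-0.76, 7.1e-10). Ccnb1, cyclin B1, had 1 and 7 UMIs in CTRL and 8 and 9 in Trpv1-ADC mice (2.11 ± 0.65, adjusted p = 0.0760), too few to describe further.

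The direction of Cenpa, Rrm1 and Hmgb2 differed from that of most cell cycle genes of the class. Of the 27 tested, 21 had a change above 0, with a median of 0.34 against 0.0071 for all genes. The values behind this were uneven between the 2 Trpv1-ADC mice. Mki67 stood at 15.8 and 22.1 CPM in CTRL and at 10.3 and 39.3 CPM in Trpv1-ADC mice. Top2a stood at 24.8 and 37.5 CPM against 22.1 and 86.7 CPM, and 40 of the 106 Top2a UMIs of Trpv1-ADC 2 lay in 1 cell. Both genes had their lowest and their highest value in the Trpv1-ADC mice. Cells with 10 or more of the 32 genes numbered 2 and 6 in CTRL and 2 and 3 in Trpv1-ADC mice.

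The class joins cluster T4, led by Ikzf2, Cd7 and Klrd1, and cluster T8, led by Ccl5 and Gzma, and fits within each were added after the class result was seen. In T4, with 274, 353, 206 and 146 cells and 6.11% of all genes called, Cenpa stood at 70.4 and 67.2 CPM in CTRL and at 21.9 and 17.6 CPM in Trpv1-ADC mice and fell by 1.82 ± 0.24 (edgeR adjusted p = 0.00141). Hmgb2 in T4 stood at 477 and 441 against 250 and 197 CPM and fell by 1.08 ± 0.16 (adjusted p = 0.00191). Rrm1 in T4 stood at 63.3 and 68.8 against 34.3 and 45.2 CPM and fell by 0.80 ± 0.22 (adjusted p = 0.0440). All 3 genes were lower in both Trpv1-ADC mice, in a cluster with 4.60% positive cells, against 3.85% of neutrophil-like cells.

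In T8, with 174, 232, 80 and 74 cells, 14.3% of them positive and 0.897% of all genes called, none of the 3 passed. Cenpa stood at 60.6 and 58.2 against 39.8 and 51.7 CPM (-0.40 ± 0.26, edgeR adjusted p = 0.503), and Rrm1 at 112 and 86.9 against 52.2 and 84.6 CPM (-0.55 ± 0.26, adjusted p = 0.317). Hmgb2 stood at 594 and 629 against 487 and 926 CPM (0.17 ± 0.23, adjusted p = 0.801), with 134 UMIs in 1 cell of Trpv1-ADC 2. The difference between T4 and T8 was not tested.

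**Figure D4:**
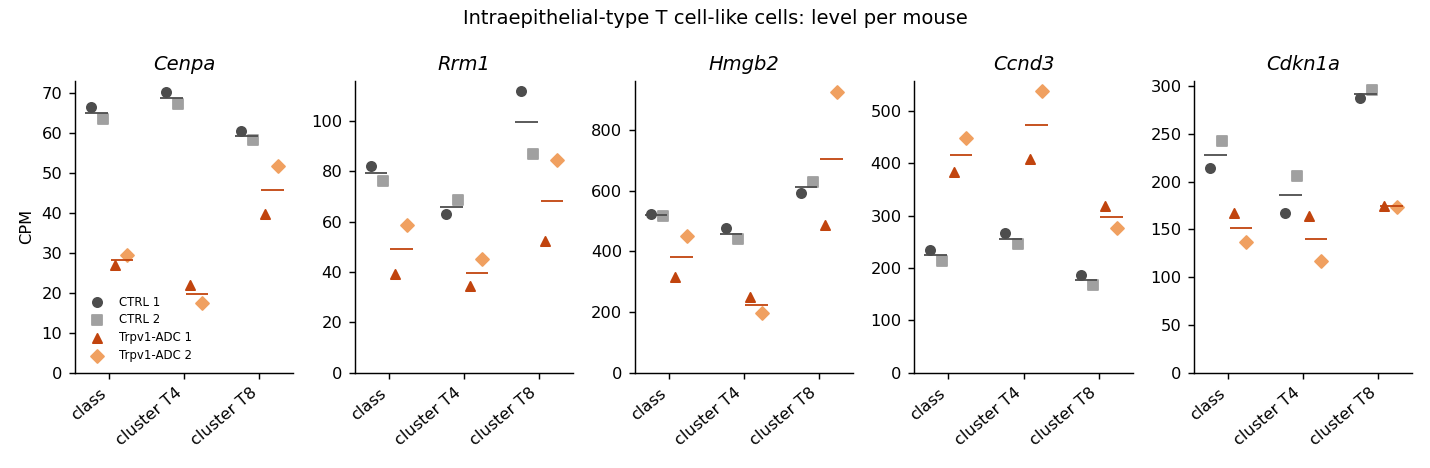
Levels of Cenpa, Rrm1, Hmgb2, Ccnd3 and Cdkn1a in CPM per mouse in intraepithelial-type T cell-like cells and in their clusters T4 and T8, with points for mice and lines for group means. Cenpa in T4 is near 70 CPM in CTRL and at 21.9 and 17.6 CPM in Trpv1-ADC mice, and in T8 its groups lie closer.

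Conventional dendritic cells of type 1 cross-present antigen to CD8 T cells. This class held 56, 70, 38 and 49 cells, and 1.21% of all genes tested in it were called. Pclaf had 91 and 174 UMIs in CTRL and 28 and 51 in Trpv1-ADC mice, in 13, 16, 6 and 7 cells. In CPM this was 100 and 138 against 53.1 and 62.8, without overlap, and Pclaf fell by 1.06 ± 0.24 (edgeR adjusted p = 0.0468). The call was lost without CTRL 2 (-0.80, adjusted p = 0.477), with hashtags called by HTODemux (-1.02, adjusted p = 0.0753), with finer clusters (-1.04, adjusted p = 0.256), with only tag doublets removed (-0.87, adjusted p = 0.389) and in a fit that was not robust (adjusted p = 0.0848), and DESeq2 gave it no adjusted p.

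In cDC1-like cells the S phase genes lay below 0 and several mitosis genes above it. All 6 replication genes tested had a change below 0, with a median of -0.85, and so did the 3 nucleotide genes tested, with a median of -0.88. Mcm6 stood at 53.0 and 89.8 CPM in CTRL and at 36.0 and 38.2 CPM in Trpv1-ADC mice (-0.98 ± 0.30, edgeR adjusted p = 0.171), and Pcna at 152 and 229 against 98.7 and 133 CPM (-0.73 ± 0.23, adjusted p = 0.195). Tyms, thymidylate synthase, stood at 26.5 and 46.1 against 11.4 and 18.5 CPM (-1.27 ± 0.42, adjusted p = 0.203). The groups did not overlap for these 3 genes, and none passed.

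By contrast Mki67 stood at 78.3 and 69.1 CPM in CTRL and 91.1 and 96.1 CPM in Trpv1-ADC mice (0.33 ± 0.22, edgeR adjusted p = 0.671). Cenpe, a kinetochore motor, stood at 14.3 and 7.94 against 19 and 32 CPM (1.26, adjusted p = 0.279). Both were higher in both Trpv1-ADC mice and neither passed. Over all 29 genes tested 14 changes were above 0 and 15 below. Cells with 10 or more of the 32 genes numbered 15 and 15 in CTRL and 5 and 9 in Trpv1-ADC mice, so a few cells carry these values.

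Effector CD4 T cells are helper cells that have met antigen. In effector CD4 T cell-like cells 29 of 33 genes tested had a change above 0 (median 0.32), and none passed edgeR's adjusted threshold, where 0.0481% of all genes did. At an unadjusted p under 0.05 there were 4, where 6.55% of all genes had such a p, and DESeq2 called 0. Ube2c stood at 6.5 and 11.6 CPM in CTRL and at 30.7 and 22.2 CPM in Trpv1-ADC mice (1.39 ± 0.31, edgeR adjusted p = 0.277), with 30 of the 85 UMIs of Trpv1-ADC 1 in 1 cell. Mcm6 stood at 92.8 and 72.8 against 110 and 123 CPM (0.49 ± 0.15, adjusted p = 0.468) and Mki67 at 43.6 and 35.6 against 52.3 and 50.5 CPM (0.37 ± 0.19, adjusted p = 0.799). All 3 were higher in both Trpv1-ADC mice. Pole2 went the other way, at 36.2 and 14.8 against 4.33 and 6.96 CPM (-2.09 ± 0.47, adjusted p = 0.277), with 32 of the 39 UMIs of CTRL 1 and 22 of the 37 of CTRL 2 in 1 cell each.

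This class joins cluster T2, with 11.7% positive cells, and cluster T11, with 19.8%, in unequal mixes: T11 gave 62 of 167 and 74 of 409 CTRL cells and 37 of 455 and 59 of 365 Trpv1-ADC cells. In fits within each, seen after the class values, Mki67 in T2 stood at 36.3 and 14.8 CPM in CTRL and 55.4 and 50.9 CPM in Trpv1-ADC mice (1.31 ± 0.31, edgeR adjusted p = 0.302). Mki67 in T11 stood at 54.1 and 124 against 14.4 and 48.7 CPM (-1.36 ± 0.52, adjusted p = 0.555). The Trpv1-ADC mice were thus both higher in T2 and both lower in T11, neither passed, and the difference between the clusters was not tested.

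**Figure D5:**
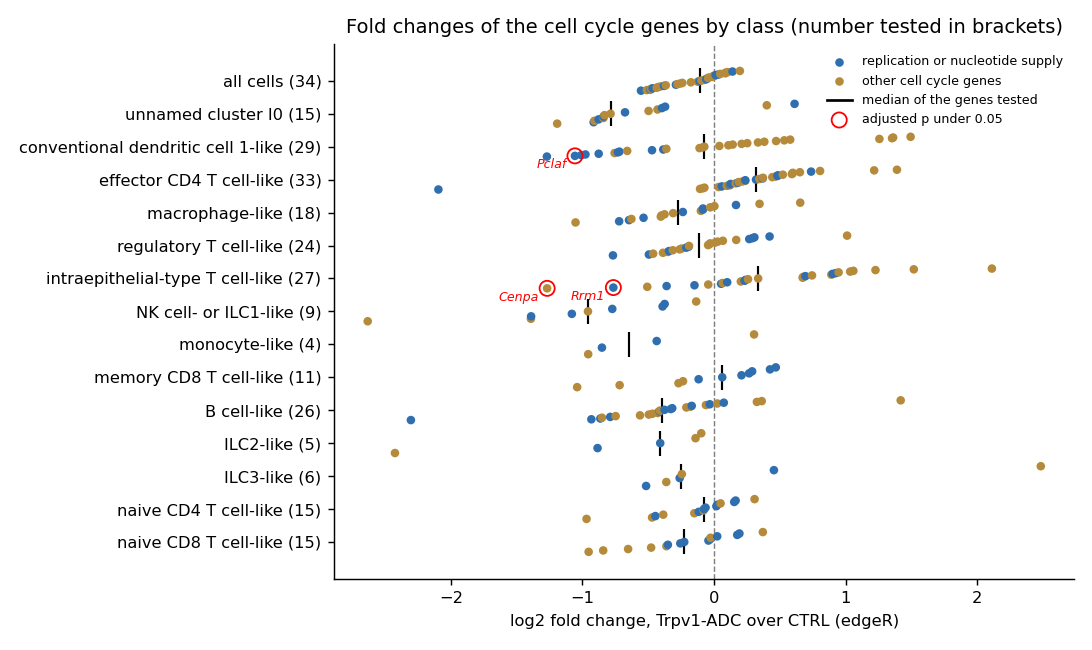
Log2 change from CTRL to Trpv1-ADC mice of each cell cycle gene tested in each class, 1 point a gene, with a bar at the median. Rings mark the 3 called values, Cenpa and Rrm1 in intraepithelial-type T cell-like and Pclaf in cDC1-like cells. Medians run from -0.96 in NK cell or ILC1-like to 0.34 in intraepithelial-type cells.

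Treg cells restrain immune responses in the gut and are the class named in the study's title. In Treg-like cells 24 genes were tested, 9 above and 15 below 0 (median -0.12), and none passed in edgeR, where 0.612% of all genes did. At an unadjusted p under 0.05 there was 1, Mcm6, where 9.03% of all genes had such a p, and DESeq2 called 0. Mcm6 stood at 99.4 and 109 CPM in CTRL and at 144 and 115 CPM in Trpv1-ADC mice (0.29 ± 0.14, edgeR adjusted p = 0.545). Mki67 stood at 25.1 and 36.5 against 23.6 and 26.2 CPM (-0.31, adjusted p = 0.776), with overlapping groups.

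Before thinning, the groups differed in the share of positive cells in opposite ways in the 2 clusters of the class. Cluster T5, led by Ctla4, Il10 and Maf, had 6.09% and 7.79% positive cells in CTRL and 10.2% and 11.8% in Trpv1-ADC mice. Cluster T9, led by Tnfrsf4 and Ikzf2, had 10.3% and 10.0% against 8.6% and 6.99%. Neither pair of groups overlapped before thinning, and the difference between clusters was not tested. After thinning, T9 had 2.91% and 3.33% positive cells in CTRL and 4.55% and 2.86% in Trpv1-ADC mice. These groups overlapped, and the difference was 0.578 percentage points. In T5 the thinned difference was 1.75 percentage points, so the opposite directions were not seen after thinning.

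In fits within each cluster, added after the class values were seen, Mki67 in T9 had 32 and 20 UMIs in CTRL and 1 and 3 in Trpv1-ADC mice, from 107, 90, 93 and 143 cells. It fell by 3.78 ± 0.53 (edgeR adjusted p = 0.00277), with 0.15% of all genes in T9 called. Of the CTRL UMIs, 20 of 32 and 15 of 20 lay in 1 cell each. Stmn1 in T9 stood at 49.5 and 57.7 CPM against 8.33 and 8.79 CPM and fell by 2.62 ± 0.41 (adjusted p = 0.00629), with up to 23 UMIs in 1 CTRL cell. Cells of T9 with 10 or more of the 32 genes numbered 3 and 1 in CTRL and 0 and 1 in Trpv1-ADC mice, so both calls rest on a handful of cells. Both genes also passed the filter on low counts through the CTRL mice alone, so no conclusion is drawn from these p-values. Top2a in T9 had 22 and 40 UMIs in CTRL and 7 and 11 in Trpv1-ADC mice. It was found in 5 and 7 cells against 7 and 7, whereas Mki67 was found in 8 and 6 against 1 and 3. In T5, with 1.14% of all genes called, Mki67 stood at 11.4 and 35.2 against 33.4 and 40.7 CPM (0.64 ± 0.38, adjusted p = 0.637), with overlapping groups.

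In NK cell or ILC1-like cells all 9 genes tested lay below 0 (median -0.96), 5 of them at an unadjusted p under 0.05 (9.72% of all genes), and none passed in edgeR, where 0.0158% of all genes did, or in DESeq2. Pcna stood at 198 and 227 CPM in CTRL and 98.0 and 147 CPM in Trpv1-ADC mice (-0.77, edgeR adjusted p = 0.276), and Cenpa at 70.8 and 35.9 against 21.3 and 20.4 CPM (-1.39 ± 0.40, adjusted p = 0.279). Stmn1 stood at 112 and 31.4 against 17 and 7.43 CPM (-2.63 ± 0.69, adjusted p = 0.281), with 30 UMIs in 1 cell of CTRL 1. The groups did not overlap for any of the 3. Cluster T13, with 15.5% positive cells the highest of the 3 clusters of this class, gave 49 of 99 and 24 of 73 CTRL cells but 19 of 82 and 18 of 98 Trpv1-ADC cells, and the part of this shift in the lower values was not tested.

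In the other classes none of the 34 genes was called in edgeR or DESeq2. B cell-like cells had 5 of 26 genes above 0 (median -0.39, 0.0553% of all genes called). At an unadjusted p under 0.05 they had 2, Pole2 and Ube2c, where 7.94% of all genes had such a p. The clusters of this class differed between mice, cluster B0 holding 243 and 186 CTRL but 127 and 31 Trpv1-ADC cells and B1 holding 27 and 57 against 119 and 247, and their part in these values was not tested. Pole2 there stood at 16.9 and 30.7 CPM in CTRL and 3.75 and 5.96 CPM in Trpv1-ADC mice (-2.30 ± 0.36, edgeR adjusted p = 0.0696), with 68 of the 99 UMIs of CTRL 2 in 1 cell. Macrophage-like cells had 4 of 18 above 0 (median -0.27, 0.0582% of all genes called), with 2 at an unadjusted p under 0.05 (9.76% of all genes). These were Cenpa at 59.5 and 57.7 against 37.7 and 19.1 CPM (-1.05 ± 0.31, adjusted p = 0.241) and Pcna at 154 and 182 against 102 and 105 CPM (-0.72, adjusted p = 0.209). Cluster I0 had 2 of 15 above 0 (median -0.79, 0.0679% of all genes called) and 3 at an unadjusted p under 0.05 (6.22% of all genes).

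Among T cells at rest, naive CD4 T cell-like cells had 6 of 15 genes above 0 (median -0.08, 0.127% of all genes called, 3 at an unadjusted p under 0.05), naive CD8 T cell-like cells 4 of 15 (median -0.23, 0.0278%, 3) and memory CD8 T cell-like cells 6 of 11 (median 0.06, 0.0792%, 2). Monocyte-like cells had 1 of 4 above 0 (median -0.64, 0.702%, 1), ILC2-like cells 0 of 5 (median -0.41, 0.143%, 2) and ILC3-like cells 2 of 6 (median -0.25, 0.396%, 1). Of all genes, 7.26% in naive CD4, 5.54% in naive CD8 and 6.88% in memory CD8 T cell-like cells had an unadjusted p under 0.05. That share was 13.2% in monocyte-like, 7.44% in ILC2-like and 9.02% in ILC3-like cells. In ILC3-like cells Kif11, a spindle motor, had 2 and 4 UMIs in CTRL and 26 and 15 in Trpv1-ADC mice (2.48 ± 0.58, edgeR adjusted p = 0.0910), with 22 of the 26 in 1 cell. In naive CD4 T cell-like cells Cenpa stood at 85.5 and 79.1 against 65.8 and 61.3 CPM (-0.39 ± 0.12, adjusted p = 0.307).

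Read across classes, Cenpa had a change below 0 in all 13 classes in which it was tested, from -1.39 in NK cell or ILC1-like to -0.09 in effector CD4 T cell-like cells (median -0.39). In 9 of the 13 both Trpv1-ADC mice lay under both CTRL mice, and it passed in intraepithelial-type cells alone. Pcna was below 0 in 11 of 14 classes (groups apart in 8), Hmgb2 in 12 of 14 (apart in 6) and Stmn1 in 11 of 12 (apart in 4). Ube2c was above 0 in 5 of 6 classes (apart in 2) and Cks1b, a Cdk subunit, in 7 of 9 (apart in 2). Mki67 was above 0 in 4 of 8 and Top2a in 4 of 11. The classes come from the same 4 mice and are not independent of each other, so these counts carry no test. In 1 class, groups of 2 and 2 mice without a difference lie apart, on either side, with an exact permutation probability of 0.333. The same counts over all genes were not made, so these cannot be set against a background.

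Of 8 further G1 cyclins and kinases Ccnd3, cyclin D3, which drives lymphocytes into the cycle, was the single gene called, in 3 classes with 6 of the list tested in each and over all cells with 8. The share of all genes called was 6.34% in the first of these classes, 0.612% in the second, 0.127% in the third and 0.245% over all cells. In intraepithelial-type cells it stood at 235 and 214 CPM in CTRL and at 384 and 448 CPM in Trpv1-ADC mice and rose by 0.83 ± 0.12 (edgeR adjusted p = 0.00435). In Treg-like cells it stood at 125 and 114 against 252 and 190 CPM and rose by 0.86 ± 0.13 (adjusted p = 0.00235), a call lost without Trpv1-ADC 1 (adjusted p = 0.0625) or Trpv1-ADC 2 (0.271). In naive CD4 T cell-like cells it stood at 220 and 223 against 304 and 308 CPM and rose by 0.46 ± 0.09 (adjusted p = 0.0390), lost in 6 of 14 alternatives: without CTRL 1 (0.275) or CTRL 2 (0.0595), with HTODemux (0.0573), a stricter cell filter (0.0551), finer clusters (0.0831) and a fit that was not robust (0.0634). Of the 2 clusters of that class, T3 held 114 and 133 CTRL but 296 and 509 Trpv1-ADC cells, and no fit was made within them. Over all cells it stood at 162 and 154 against 238 and 236 CPM and rose by 0.60 ± 0.06 (adjusted p = 0.0433), and the call was lost when any 1 mouse was left out (0.0685 to 0.0846), with the stricter cell filter (0.0520) and in a fit that was not robust (0.0671). The groups were apart in all 4. Within clusters, fitted after the class values were seen, Ccnd3 passed in T5 (1.06, 0.00027) and T4 (0.83, 0.00644) and not in T9 (0.50, 0.528) or T8 (0.73, 0.0648).

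Of 8 Cdk inhibitors, Cdkn1a, which encodes p21, stood at 214 and 243 CPM in CTRL and 167 and 137 CPM in Trpv1-ADC intraepithelial-type cells and fell by 0.64 ± 0.14 (edgeR adjusted p = 0.0232), a call lost without CTRL 2 (-0.55, adjusted p = 0.119). In Treg-like cells it stood at 147 and 157 against 96.2 and 108 CPM and fell by 0.59 ± 0.13 (adjusted p = 0.0355), lost without CTRL 2 (0.0674), Trpv1-ADC 1 (0.216) or Trpv1-ADC 2 (0.667), with DESeq2 (0.679) and in a fit that was not robust (0.0929). Within clusters Cdkn1a passed in T5 (-0.73, 0.0110) and not in T9 (-0.10, 0.974), T4 (-0.44, 0.185) or T8 (-0.78, 0.0531). Calls in this list were 2 of 4 tested in intraepithelial-type cells, where 6.34% of all genes were called and 23.0% had an unadjusted p under 0.05. In Treg-like cells they were 1 of 4, where 0.612% of all genes were called. Lists of 4 genes are too short to set against these shares. Cdkn2d, another Cdk inhibitor, stood at 22.1 and 16.3 against 39.3 and 45.0 CPM in intraepithelial-type cells and rose by 1.09 (adjusted p = 0.0174), lost without CTRL 2 (0.122). On the opposite strand, 361 exon bases of Ccnd3 overlap Bysl and 273 of Cdkn1a overlap AC167363.2, and whether strand was used in counting is not given in the sources used here.

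Of 13 E2F, RB and DREAM factors, 1 was called, among 7 tested in intraepithelial-type cells, where 6.34% of all genes were called. Lin54, the DREAM subunit that binds the CHR, stood at 286 and 248 CPM in CTRL and 153 and 97.4 CPM in Trpv1-ADC intraepithelial-type cells and fell by 1.14 ± 0.19 (edgeR adjusted p = 0.0105), a call lost when cells were clustered with cell cycle genes (0.0513). Of 30 further replication genes, Lig1, the ligase that joins Okazaki fragments, stood at 62.9 and 74.7 against 17.1 and 33.3 CPM in cDC1-like cells and fell by 1.41 ± 0.31 (adjusted p = 0.0386, 1.21% of all genes called). Its call was lost without CTRL 2 (0.213), with only tag doublets removed (0.275), with finer clusters (0.194), with cell cycle genes in the clustering (0.0553) and in a fit that was not robust (0.0803). In that class 18 of the 19 further replication genes tested lay below 0 (median -0.64). Rfc4, a clamp loader subunit, rose by 1.06 in intraepithelial-type cells (adjusted p = 0.0326), the 1 call of 23 tested there. It was called in 7 of 13 alternatives and lost, among others, without CTRL 1 (0.153) or CTRL 2 (0.0859).

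Of the 67 further mitosis genes found, 36 were tested in intraepithelial-type cells and 4 were called, where 6.34% of all genes were called and 23.0% had an unadjusted p under 0.05. Tubb4b, a beta tubulin, and Pttg1, securin, fell (-0.67, edgeR adjusted p = 0.0203, and -0.57, adjusted p = 0.0313). In the same cells the condensin subunit Smc4 rose by 0.58 (adjusted p = 0.0212) and Racgap1, of the central spindle, by 0.62 (adjusted p = 0.0403). Each of these 4 calls was lost when a CTRL mouse was left out: Tubb4b without CTRL 2 (adjusted p = 0.151), and Pttg1 (0.0651 and 0.201), Smc4 (0.211 and 0.0622) and Racgap1 (0.120 and 0.142) without CTRL 1 and without CTRL 2. Racgap1 was also lost without Trpv1-ADC 2 (0.153), and DESeq2 called none of the 4. Racgap1 also rose in ILC3-like cells, from 17.8 and 26.6 CPM in CTRL to 101 and 76.5 CPM in Trpv1-ADC mice (2.01 ± 0.36, adjusted p = 0.0134), where 0.396% of all genes were called. The ILC3-like class drew on its clusters unequally, with 9 and 12 CTRL cells but 39 and 39 Trpv1-ADC cells in I7 against 42 and 53 and 43 and 30 in I1, and no fit was made within them.

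Of the 34 genes 9 share exon bases with another annotated gene, 6 on the opposite strand and 3 on the same strand. The longest overlaps are Ube2c with Tnnc2 (592 bases), Ccna2 with Exosc9 (510 bases) and Pole2 with Gm49384 (245 bases), and Top2a shares 122 bases with Gm23451. Cenpa, Rrm1 and Pclaf, the genes called within classes, share none.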

How the data were processed

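Cells of 4 mice were hashed into 1 droplet run. The deposited values are raw counts of UMIs per gene and barcode and raw counts per hashtag and barcode; whether the latter are UMIs or reads is not given in the sources used here. The submitters' processing notes name Cell Ranger, Seurat and mm10, without versions. Per the labels' protocols the libraries used 10x Genomics chemistry, named as 5' in one place and 3' v3 in another. The other deposited files hold barcode, gene and hashtag names, with no values.

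The cell filter asked for at least 500 UMIs, 200 detected genes and no more than 10% mitochondrial UMIs. A barcode was given to the mouse whose tag led the 4 labelled tags, of 15 in the file, with at least 10 counts and at least 3 times the next. Scrublet doublets were removed (threshold 0.375, 10.5% of assigned barcodes). Cells were clustered with scanpy 1.11.5 (2000 variable genes without cell cycle genes, 30 components, 15 neighbours, Leiden resolution 1), and the 62 clusters were named from 172 fixed markers.

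UMIs were summed per mouse and class. Groups were compared with edgeR 4.0.16 (TMM, filterByExpr, robust quasi-likelihood fit, R 4.3.3), fitted on all genes of a class, with Benjamini-Hochberg adjustment and a threshold of 0.05, in the 14 classes with at least 20 cells in every mouse. DESeq2 1.42.0 was an alternative, and the scripts were tested on simulated data. Log2 changes are Trpv1-ADC over CTRL, ± SE. The share of cells with Mki67 or Top2a was compared by an exact permutation test over mice and, per class, by edgeR with the number of cells as offset. Each mouse summed to 27586172 to 29905834 UMIs.

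The genes named are those called, Mki67 and Top2a, up to 3 further genes per class by raw p, those at the ends of an order and, of the other lists, at most 4 called per list; Ccnd3, Hmgb2 in clusters, and genes named for single cells or for contrast were chosen after their values were seen. The genes and lists were chosen with earlier results of these data known. Promoters are from RefSeq (GRCm38.p6). Alternatives were the tag rule, doublet, cell and gene filters, clustering, tool, replicate block and leaving out each mouse.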

Additional observations from a re-analysis of the deposited data

Results flagged for a closer look

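In several classes both Trpv1-ADC mice lay on one side of both CTRL mice in the share of cells with Mki67 or Top2a, and the side differed between classes. Groups of 2 and 2 mice without a difference lie apart, on either side, with an exact permutation probability of 0.333, so such separations are common. The difference, Trpv1-ADC minus CTRL, was 1.77 percentage points in Treg-like and 0.328 in naive CD8 T cell-like cells. It was -9.42 in cDC1-like, -0.854 in macrophage-like and -0.695 in naive CD4 T cell-like cells. Within Treg-like cells it was 4.07 in cluster T5 and -2.34 in cluster T9, and after thinning 1.75 and 0.578. These are classes with at least 20 cells in every mouse and at least 10 positive cells. The Trpv1-ADC mice were also both lower in smaller classes, by -33.1 in mature dendritic cell-like, -9.73 in cDC2-like, -5.58 in the unnamed cluster I3, -5.40 in ILC2-like and -5.35 in type 3 gamma delta T cell-like cells. The first of these held 27 and 9 CTRL and 8 and 19 Trpv1-ADC cells. These class differences are before thinning. After thinning, the groups overlapped in each of these smaller classes, and the mature dendritic cell-like difference was -2.06. They also overlapped in cDC1-like, macrophage-like, naive CD4 and naive CD8 T cell-like cells. In Treg-like cells they stayed apart, at 2.36% and 3.14% in CTRL and 4.63% and 3.52% in Trpv1-ADC mice. Before thinning, the groups of naive CD4 T cell-like cells overlapped within both clusters. The shares were 4.17% and 4.21% against 3.20% and 4.75% in T0 and 2.63% and 3.01% against 1.35% and 3.14% in T3. The difference between classes was not tested, and none of the 13 classes passed on its own. The naive classes lie at or under the share of neutrophil-like cells, 3.85%, and cDC1-like cells numbered 38 to 70 per mouse.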

How the results depend on the processing

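The lower share of Mki67 or Top2a cells in Trpv1-ADC mice kept its direction under every alternative run, from -0.517 (classes standardised) to -1.97 percentage points, with leave-one-out values from -1.97 to -1.11. No class was called in that share, and none of the 34 genes over all cells of a mouse, under any alternative run. The 3 calls within classes became 7 with only tag doublets removed, 5 when clustered with cell cycle genes, 5 with the mouse number as a replicate block, 26 with no filter on low counts, 1 with DESeq2, and 13 to 25 with 1 mouse left out; the cause was not tested. Mouse numbers are shared across groups in name only: deviations of same-numbered mice correlated at -0.141 to 0.0723 over the 14 classes. Rrm1 in intraepithelial-type cells lost its call with the block (-0.77, adjusted p = 0.0522). Of 261 alternative fits of 19 named results, 196 stayed on the same side of the threshold, 58 lost the call, 7 gained it and 0 changed sign, but Hmgb2 turned to 0.17 in cluster T8 alone, a fit added after the data were seen. Cenpa in intraepithelial-type cells was called in 14 of 14 alternatives (-1.61 to -1.20). Depth limits the rarest genes: Bub1 had 240 UMIs in all.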
